A study of Mus musculus with 18 samples.

Results

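The immediate early genes followed here in mouse liver after monocrotaline number 10: the early growth response factors Egr1, Egr2 and Egr3, the immediate early response genes Ier2, Ier3 and Ier5, and Klf6, Nr4a1, Dusp1 and Myc. The 10 genes were given by name and found as the probes whose systematic name maps to one of these symbols on the mRNA arrays. All 10 were on the array and passed the filter on dim probes, so they are 10 of the 24805 genes tested. A single probe was read for 9 of them and 2 probes for Ier5. Egr2 passed the filter through the MCT 330 group alone, so its passing already implies a higher signal there.

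Monocrotaline (MCT) is a plant pyrrolizidine alkaloid that liver enzymes turn into a reactive pyrrole, and it is known for injuring the endothelium that lines the liver sinusoids. Male C57BL/6 mice aged 6 weeks went 12 h without food and then received a single oral dose of 270 mg/kg (MCT 270) or 330 mg/kg MCT (MCT 330), or saline as the control, with 8 mice in each group. Livers were collected 48 h after dosing, and liver mRNA was hybridised to 9 single-colour arrays, 3 per group, which the labels assign to 9 different mice. The question the design addresses is how liver expression differs between each dose and the control, and between the 2 doses.

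Immediate early genes are those that a cell can transcribe from factors it already holds, without first making new protein, within minutes of a growth, injury or stress signal. Kinases of the ERK, JNK and p38 cascades and the factors SRF, CREB and NF-kB switch them on, and many of their transcripts and proteins decay fast. In liver the group is best known from the hours after partial hepatectomy or acute injury, when Myc, Egr1 and the Fos and Jun genes rise. The Egr proteins, Klf6, Nr4a1 and Myc are DNA-binding transcription factors, Dusp1 is a phosphatase that switches off p38 and JNK, and the Ier proteins act in stress and survival signalling.

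Sequences upstream of these genes, where given, were searched for elements known to be bound by such factors. Promoter windows from RefSeq (GRCm38.p6) were given for 6 of the 10 genes: Egr2, Ier3, Ier5, Klf6, Nr4a1 and Dusp1. The windows were searched on both strands for a CArG box, the element bound by SRF; for the cyclic AMP response element TGACGTCA and its shorter core TGACG, which the full element contains; for the AP-1 element TGANTCA; for the Egr element GCGNGGGCG; and for an NF-kB element. The 4 stretches of 250 bases before the start of transcription are shown because each holds at least 1 of these elements, in capitals. They are Egr2 (chr10:67537619-67537868, plus strand, the third of 5 start sites), Ier3 (chr17:35821463-35821712, plus strand), Nr4a1 (chr15:101266596-101266845, plus strand) and Dusp1 (chr17:26508473-26508722, minus strand), each written 5′ to 3′ along the gene.
Egr2: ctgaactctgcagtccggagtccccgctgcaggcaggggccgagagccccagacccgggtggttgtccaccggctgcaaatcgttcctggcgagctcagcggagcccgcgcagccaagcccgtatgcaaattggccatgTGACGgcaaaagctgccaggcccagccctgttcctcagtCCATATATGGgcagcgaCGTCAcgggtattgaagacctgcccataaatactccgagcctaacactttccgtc
Ier3: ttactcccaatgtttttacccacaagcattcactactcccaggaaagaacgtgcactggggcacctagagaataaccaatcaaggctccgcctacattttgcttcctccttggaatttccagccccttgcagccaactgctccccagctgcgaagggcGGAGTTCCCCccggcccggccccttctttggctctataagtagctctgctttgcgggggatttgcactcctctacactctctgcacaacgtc
Nr4a1: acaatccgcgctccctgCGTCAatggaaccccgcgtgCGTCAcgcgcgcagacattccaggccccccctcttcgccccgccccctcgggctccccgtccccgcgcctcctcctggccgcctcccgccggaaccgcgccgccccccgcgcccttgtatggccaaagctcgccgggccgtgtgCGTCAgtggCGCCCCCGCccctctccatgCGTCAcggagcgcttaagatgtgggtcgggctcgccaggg
Dusp1: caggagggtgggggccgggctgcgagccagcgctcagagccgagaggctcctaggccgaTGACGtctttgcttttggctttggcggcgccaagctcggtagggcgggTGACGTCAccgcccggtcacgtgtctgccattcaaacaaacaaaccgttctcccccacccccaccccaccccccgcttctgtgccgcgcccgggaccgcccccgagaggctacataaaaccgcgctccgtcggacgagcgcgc

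In the Egr2 stretch the longer run of capitals is a CArG box, 72 to 63 bases before the start, and TGACG cores lie on either side of it. The CArG box was found in 4 of the 10 windows of these genes, all 4 of them overlapping or neighbouring Egr2 windows, and in 1.63% of all 32851 windows in the table. In the Ier3 stretch the capitals mark an NF-kB match, 92 to 83 bases before the start, and 4.51% of all windows hold such a match. Nr4a1 held 4 TGACG cores and 1 Egr element, whose shares over all windows were 20.8% and 5.55%, and an NF-kB match that spans the start. In Dusp1 the full element TGACGTCA lay 143 to 136 bases before the start, with a further TGACG core 191 to 187 bases before it, and the full element stood in 1.79% of all windows. The windows of Ier5 and Klf6 held none of the elements searched, and the AP-1 element was in 0 of the 10 windows against 7.81% of all windows. These matches describe letters in a window and not binding.

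The arrays of a group were not all separate measurements. Replicates 2 and 3 of each group lay on the same array position in different scans and differed by less than repeated spots of a probe on one array: the SD between them was 0.0324 (control), 0.0294 (MCT 270) and 0.0377 (MCT 330) on the log2 scale, against spot noise of 0.0560, 0.0695 and 0.0557. They were averaged and counted once. MCT 330 replicate 1 lay within spot noise of replicate 3 and on the limit against replicate 2, so the 3 MCT 330 arrays counted as 1 sample. That join is less certain than the others: replicate 1 lay on another array position and shared a scan with replicate 2. It differed from replicates 2 and 3 by over 1 log2 unit at 95 and 106 probes, against 2 to 8 probes in the other joined pairs. The fit therefore holds 2 control samples, 2 MCT 270 samples and 1 MCT 330 sample, which borrows its error from the other groups' spread. Whether the joined arrays come from the same mouse is not given, against labels that name a mouse for each. The control and MCT 270 arrays share scans, whereas the MCT 330 arrays were scanned apart from both, so scan and the higher dose cannot be told apart. Since the livers were measured whole, fewer cells of a type and less RNA per cell cannot be told apart. Hepatocyte markers were well above background on every array (10 of 10), as the liver label states.

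Levels are given as log2 signal over the array's 75th percentile, so 0 is the signal of a fairly bright probe and each further unit is a doubling. Levels of different probes are not set against each other. Called means an adjusted p under 0.05 in limma (Benjamini-Hochberg over all 24805 genes). At MCT 330 the median of all genes stood at -0.25 against control on this scale, at -0.05 after quantile normalization and at -0.03 after normexp background correction with quantile normalization, so each fold change at that dose is about 0.25 higher when read relative to all genes.

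At 330 mg/kg, 7 of the 10 genes rose against control: Ier3, Egr2, Klf6, Egr1, Ier2, Nr4a1 and Ier5. On this scale Ier3 stood 38.8-fold higher (log2 5.28, against 3.26 under normexp), so the size depends on the background correction. It had 1 of 3 control spots well above background. Egr2 had none, and on this scale stood 4.64-fold above a floor set by the lowest signals well above background. It entered the test only through the MCT 330 group, so its call adds nothing to its detection there. The other 5 lay between 9.99-fold for Klf6 and 2.06-fold for Ier5. Egr3 alone was called lower, with control spots mostly not well above background. Myc stood 7.72-fold higher and missed the threshold, and Dusp1 did not differ beyond its error. Over all genes 9.48% were called higher and 23.8% lower in this comparison, 33.3% in either direction. These calls set 1 MCT 330 sample, whose own spread was not measured, against 2 control samples. With MCT 330 replicate 1 as a sample of its own, a setting added after the data were seen, limma called 8 of the 10 higher and 1 lower. That setting called 13734 of all genes tested, so the shares above are not its background. At 270 mg/kg limma called 0 of the 10 genes, and 0 (0%) of all 24805.

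**Figure D1:**
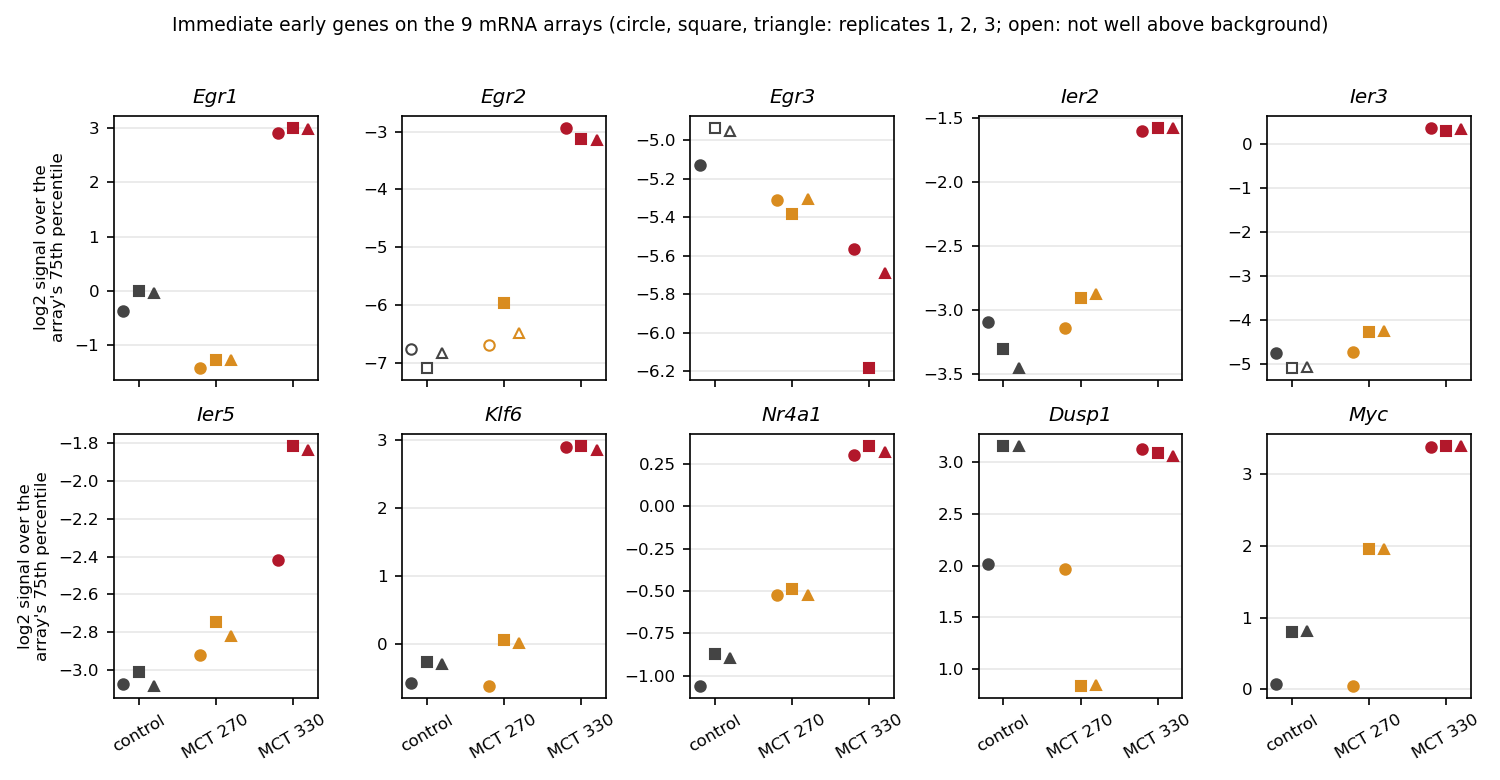
Level of each of the 10 genes on the 9 mRNA arrays, as log2 signal over the array's 75th percentile (y axis, scaled separately per gene), by group (x axis). Circles, squares and triangles are replicates 1, 2 and 3, and open symbols are spots not well above background; all MCT 330 arrays lie above all control and MCT 270 arrays for 8 of the 10 genes, with Egr3 and Dusp1 as the exceptions, as they do for 20.7% of all genes tested.

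Egr1, the founding member of its zinc finger family, was lowest at the lower dose and highest at the higher one. Its level was -0.37, 0.00 and -0.03 on control arrays 1 to 3, -1.41, -1.27 and -1.26 on the MCT 270 arrays, and 2.91, 3.00 and 2.98 on the MCT 330 arrays. The 3 groups did not overlap, in the order MCT 270, control, MCT 330. Against control the MCT 330 difference was 3.16 ± 0.24 (log2, SE; limma adjusted p = 0.00906), 8.94-fold. The MCT 270 difference was -1.14 ± 0.20, with an unadjusted p of 0.00254 that gave an adjusted p of 0.108 in limma, so this neighbouring pair in the order was not called. Within the first scan, which holds 2 arrays of each group, it was -1.15, and within the second -1.23. The second scan's arrays were joined with arrays of the first, so its value is not a separate estimate. With MCT 330 replicate 1 taken as a sample of its own, a setting added after the data were seen, the MCT 270 difference in Egr1 was called (limma adjusted p = 0.0294). Between the doses Egr1 differed by 4.30 ± 0.24 (adjusted p = 0.0210 in limma), 19.7-fold.

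Egr2, which shares the Egr DNA-binding domain and is also known from macrophage and Schwann cell biology, was detected at the higher dose. It was well above background on 0 of 3 control arrays, 1 of 3 MCT 270 arrays and 3 of 3 MCT 330 arrays. Measured levels were -6.75, -7.07 and -6.82 in the control group, -6.69, -5.97 and -6.48 at MCT 270, and -2.93, -3.12 and -3.15 at MCT 330. The MCT 330 arrays stood apart from all others. Since the control spots were not well above background, the control level was not measured. Each control array was counted at the higher of its own value and the lowest signal well above background. Over that floor Egr2 stood 4.64-fold higher at MCT 330 (log2 2.22). Normexp gave a smaller log2 difference from control, 1.18, so 4.64-fold holds for this scale only and is not a firm minimum. Egr2 was called in limma against control and against MCT 270, but it entered the test only through MCT 330, the group where it is high. Those calls rest on control and MCT 270 spots mostly not well above background, and add nothing to its detection at MCT 330.

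Egr3, the third Egr factor, read lower at MCT 330, on dim spots. It was well above background on 1 of 3 control arrays and on all 6 treated arrays. Its levels were -5.13, -4.93 and -4.95 in control liver, -5.31, -5.38 and -5.30 at MCT 270 and -5.57, -6.18 and -5.69 at MCT 330. The groups did not overlap and stood in falling order of dose, but among the controls only replicate 1 (-5.13) was well above background. The other control values, -4.93 and -4.95, are ceilings and make up 1 of the 2 control samples. The size of the change from control was therefore not measured, and its direction rests on control replicate 1 alone. Egr3 was 0.78 ± 0.20 lower at MCT 330 than in control (log2 difference -0.78; limma adjusted p = 0.0419), or -0.52 relative to all genes. That call ended under quantile normalization (-0.51, limma adjusted p = 0.129) and under normexp (-0.14, 0.325). It also ended without MCT 330 replicate 2 (-0.59, limma adjusted p = 0.0787), without MCT 270 replicate 1 (0.123), and without control replicates 2 and 3 (0.0729) or MCT 270 replicates 2 and 3 (0.120), each pair left out as 1 sample, and without the filter on dim probes (0.0957). Neither MCT 270 against control (-0.29 ± 0.16) nor MCT 330 against MCT 270 (-0.49 ± 0.20) was called.

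Ier3, also called IEX-1, is a stress-inducible protein that modulates cell survival and is a known NF-kB and p53 target. Its control levels were -4.77, -5.09 and -5.08, with 1 of the 3 spots well above background. At MCT 270 they were -4.74, -4.29 and -4.27, and at MCT 330 they were 0.38, 0.31 and 0.35. The MCT 330 arrays lay more than 4 log2 units above every other array. The difference from control was 5.28 ± 0.29 (limma adjusted p = 0.00906), which placed Ier3 at rank 16 of 24805 genes by rise. Against MCT 270 it was 4.86 ± 0.29 (limma adjusted p = 0.0210), 29.0-fold and rank 11. Normexp gave 3.26 against control, beside 3.30 for Klf6, so the order of these 2 genes depends on the background correction. MCT 270 and control did not overlap, but their difference of 0.42 ± 0.24 was not called (limma adjusted p = 0.407).

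Ier2, a nuclear protein induced by serum and stress, rose less. Its levels were -3.09, -3.30 and -3.45 in control liver, -3.14, -2.91 and -2.87 at MCT 270, and -1.60, -1.58 and -1.58 at MCT 330. Control and MCT 270 arrays overlapped and both lay below MCT 330. The difference at MCT 330 was 1.65 ± 0.24 against control (limma adjusted p = 0.0130) and 1.43 ± 0.24 against MCT 270 (limma adjusted p = 0.0249), while MCT 270 differed from control by 0.22 ± 0.19.

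Ier5, known for binding the phosphatase PP2A and the heat shock factor HSF1, had a pair of probes that moved the same way. The brighter one, used in the fit, read -3.08, -3.01 and -3.08 in control liver, -2.92, -2.74 and -2.82 at MCT 270, and -2.42, -1.81 and -1.84 at MCT 330. MCT 330 replicate 1 lay apart from the other arrays of its group, yet above every MCT 270 array. The other probe read -4.10 to -3.95, -4.00 to -3.40 and -2.55 to -2.43 in the same groups, with no such gap at MCT 330. The fitted rise was 1.04 ± 0.19 against control (limma adjusted p = 0.0201) and 0.83 ± 0.19 against MCT 270 (limma adjusted p = 0.0440). The mean of both probes gave 1.30 against control. The rise against control was not called without MCT 270 replicate 1 (limma adjusted p = 0.0682) or without MCT 270 replicates 2 and 3 together (0.0657), nor without the filter on dim probes (0.0568), and the rise against MCT 270 was called in 5 of 11 settings that left out an array or a joined sample.

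Klf6, a zinc finger factor induced in liver injury, was high at the upper dose. Its levels were -0.58, -0.28 and -0.29 in control liver, -0.62, 0.05 and 0.02 at MCT 270, and 2.89, 2.91 and 2.85 at MCT 330. Control and MCT 270 overlapped. Klf6 rose by 3.32 ± 0.34 against control (limma adjusted p = 0.00906), 9.99-fold, and by 3.18 ± 0.34 against MCT 270 (limma adjusted p = 0.0210). Its MCT 270 difference of 0.14 ± 0.28 changed sign when control replicate 1 was left out (-0.0074), so no direction can be given there.

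Nr4a1, the orphan nuclear receptor Nur77, showed groups in the order of dose. Its levels were -1.06, -0.87 and -0.90 in control liver, -0.53, -0.49 and -0.52 at MCT 270, and 0.30, 0.36 and 0.32 at MCT 330. No groups overlapped. Nr4a1 rose by 1.30 ± 0.20 at MCT 330 against control (limma adjusted p = 0.0139) and by 0.84 ± 0.20 against MCT 270 (limma adjusted p = 0.0448), and the latter call ended under quantile normalization. The call against control ended without MCT 270 replicate 1 (limma adjusted p = 0.0516). Within the first scan MCT 270 stood 0.46 above control and within the second 0.37, where the arrays were joined with arrays of the first and give no separate estimate. In the fit MCT 270 stood 0.46 ± 0.16 above control, with an unadjusted p of 0.0387 and an adjusted p of 0.244 in limma. Under that unadjusted threshold 9.8% of all genes stood higher and 8.79% lower at MCT 270, 18.6% in all, and Nr4a1 and Egr1 were the 2 of the 10 genes that passed it.

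Dusp1, the phosphatase that ends p38 and JNK signalling, spread widely within groups. Its levels were 2.01, 3.15 and 3.16 in control liver, 1.96, 0.84 and 0.85 at MCT 270, and 3.13, 3.08 and 3.06 at MCT 330. Control replicate 1 lay beside MCT 270 replicate 1, and control replicates 2 and 3 beside the MCT 330 arrays. The difference from control was -1.18 ± 0.54 at MCT 270 (limma adjusted p = 0.332) and 0.50 ± 0.66 at MCT 330 (limma adjusted p = 0.586). Without control replicate 1 the latter became -0.066. The step from MCT 270 to MCT 330 was 1.69 ± 0.66 and was not called (limma adjusted p = 0.136).

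Myc, the growth-promoting factor that binds DNA with Max, was uniform at MCT 330 and divided elsewhere. Its levels were 0.07, 0.81 and 0.82 in control liver, 0.05, 1.95 and 1.95 at MCT 270, and 3.39, 3.40 and 3.39 at MCT 330. All MCT 330 arrays lay above all others, while MCT 270 held both the lowest array of the 9 and the highest outside MCT 330. The difference at MCT 330 was 2.95 ± 0.84 against control (limma adjusted p = 0.0536) and 2.39 ± 0.84 against MCT 270 (limma adjusted p = 0.107). By size alone Myc stood at rank 218 of 24805 genes. Without MCT 270 replicate 1, the low array, the same difference from control was called (limma adjusted p = 0.0351), as it was without MCT 270 replicates 2 and 3 together (0.0321) and with MCT 330 replicate 1 as its own sample (0.0140). The MCT 270 difference, 0.56 ± 0.68, became -0.39 without MCT 270 replicates 2 and 3.

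**Figure D2:**
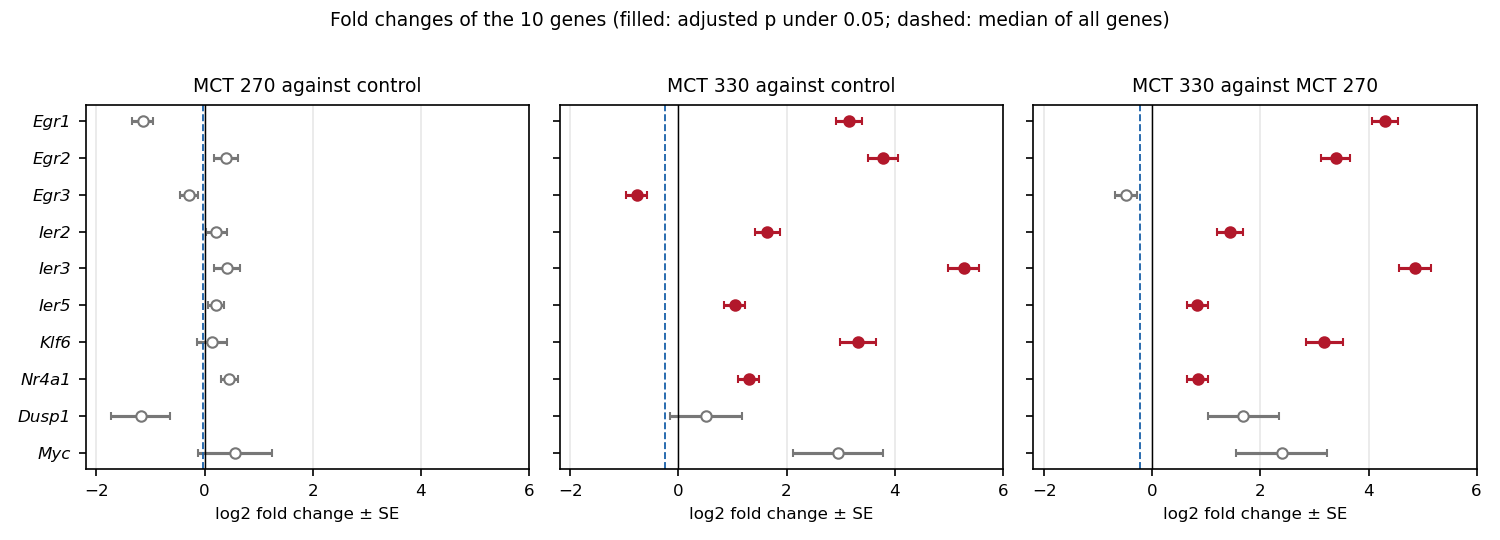
Log2 fold change with its standard error (x axis) of the 10 genes (y axis) in each of the 3 comparisons, from limma. Filled points have an adjusted p under 0.05 and the dashed line is the median of all genes; 0 points are filled for MCT 270 against control, 8 for MCT 330 against control and 7 for MCT 330 against MCT 270. The Egr2 points rest on control and MCT 270 spots mostly not well above background and are not measured folds. Control spots of Egr3 and Ier3 were also mostly not well above background.

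Between the doses 7 of the 10 genes were higher at MCT 330, the 7 that also rose against control, and none was lower. Over all genes 4.98% were higher and 16.8% lower, 21.8% in all. The comparisons share the MCT 330 sample, and Egr2 entered the test only through it. None of the calls between the doses held without MCT 270 replicate 1, or without MCT 270 replicates 2 and 3 together, where no gene tested passed. Those fits had fewer samples to estimate the spread, and their genes were filtered anew. Against control, leaving out MCT 270 replicate 1 took the count of all genes called from 8264 to 3622 and that of these genes from 8 to 6, and leaving out MCT 270 replicates 2 and 3 took them to 4017 and 7. With the 9 arrays as separate samples, 4 of the 10 genes and 9545 of all genes tested in that setting were called at MCT 270 against control. The share of the 10 is thus near that of all genes. That setting also counts replicates 2 and 3 as separate, though they differed by less than spot noise. Of the 4, Egr1 and Dusp1 were lower and Nr4a1 and Ier3 higher. The share of higher genes among all calls against control was 28.5% here, 41.9% under quantile normalization and 48.5% under normexp.

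Of a wider set of 34 other immediate early genes, 16 rose and 0 fell at MCT 330 against control, with a median log2 fold change of 1.29 beside -0.25 for all genes, of which 9.48% rose and 23.8% fell. Atf3, a stress-induced factor of the ATF family, went from between -4.04 and -3.38 in the control samples to 2.33 in the MCT 330 sample, a rise of 6.04 ± 0.40 (limma adjusted p = 0.00906). Fos, the AP-1 partner of the Jun proteins, went from between -3.02 and -2.82 to 1.76, a rise of 4.67 ± 0.21. Ccn1, a secreted matrix protein also known as Cyr61, rose by 4.59 ± 0.30. Between the doses 17 of the 34 were higher and 0 lower, with a median of 1.29 beside -0.23 for all genes; 0 were called without the filter on dim probes, 0 without MCT 270 replicate 1 or without MCT 270 replicates 2 and 3 together, and 16 to 20 with other arrays or joined samples left out. At MCT 270 against control 0 of the 34 were called by limma, and the median was 0.16. At an unadjusted p under 0.05 there, 3 of the 34 were higher and 3 lower, beside 9.8% and 8.79% of all genes, 18.6% in all, so the share is near that of all genes. Leaving out single arrays or joined samples gave 13 to 21 risen genes at MCT 330 against control.

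The counts of the following lists stand beside 9.48% risen and 23.8% fallen over all genes. Of 18 MAP kinase phosphatases and Ras feedback inhibitors, which end kinase signalling, 7 rose and 0 fell at MCT 330 against control, with a median of 0.58. Dusp10, a phosphatase of p38 and JNK, rose by 3.69 ± 0.33 (limma adjusted p = 0.00906), from between -3.49 and -2.99 in the control samples to 0.46. Dusp4, a nuclear ERK phosphatase, rose by 3.69 ± 0.74 (limma adjusted p = 0.0244) with 1 of 3 control spots well above background, and Dusp14 by 2.14 ± 0.42 (limma adjusted p = 0.0227). The call on Dusp4 ended without MCT 270 replicate 1 (limma adjusted p = 0.0524) and that on Dusp14 without control replicates 2 and 3 (0.0605). Without the filter on dim probes 4 of the 18 were called. Of the 20 genes of the ERK, JNK and p38 cascade itself, 5 rose and 0 fell, with a median of 0.09. The kinases Rps6ka3 (1.64 ± 0.22), Map2k1 (1.54 ± 0.20) and Map2k3 (1.18 ± 0.22) led them. Leaving out arrays or joined samples gave 2 to 6 risen genes here, and Map2k3 was not called without MCT 270 replicate 1 (limma adjusted p = 0.0628).

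Of the 25 genes of ribosome biogenesis and growth that are known to respond to Myc, 7 rose and 2 fell at MCT 330 against control, with a median of 0.66. Odc1, the rate-limiting enzyme of polyamine synthesis, rose by 1.68 ± 0.26 and the nucleolar protein Gnl3 by 1.52 ± 0.25 (limma adjusted p = 0.0142 and 0.0164). Cad, which starts pyrimidine synthesis, fell by 2.13 on the log2 scale (SE 0.55; limma adjusted p = 0.0437), a call that ended under quantile normalization (0.0834), without MCT 270 replicate 1 (0.0811) and without MCT 330 replicate 1 (0.0529). The number that rose was 10 under quantile normalization, 15 under normexp and 2 to 11 with arrays or joined samples left out. In the network of factors that share the Max partner, 1 of 11 tested rose (Mga, 1.05 ± 0.20) and 1 fell (Mycl, -1.38 ± 0.27), with a median of -0.11. The fall of Mycl was not called under quantile normalization (limma adjusted p = 0.0619), and neither Mycl (0.0572) nor Mga (0.0675) was called without MCT 270 replicate 1.

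In each of the remaining 3 lists more genes fell than rose, as over all genes. Of 13 other Krueppel-like factors tested, 1 rose and 4 fell at MCT 330 against control, with a median of -0.53: Klf4 rose by 2.24 ± 0.23, while Klf3 and Klf15 stood at -1.24 ± 0.27 and -1.24 ± 0.20 (limma adjusted p = 0.00916, 0.0278 and 0.0152). Of 7 partners and relatives of the Egr and Nr4a factors tested, 0 rose and 3 fell: Egr4 (-1.23 ± 0.34), Rxra (-1.16 ± 0.20) and Rxrb (-0.83 ± 0.22). The calls on Egr4 and Rxrb ended under quantile normalization (limma adjusted p = 0.162 and 0.102). Of 8 genes listed for SRF and its cofactors, Srf rose by 1.08 ± 0.29, and Elk3 (-1.04 ± 0.21) and Creb1 (-0.87 ± 0.19) fell. Creb1, which encodes CREB, stands in this list but is not an SRF cofactor. Srf and Creb1 were not called under quantile normalization (limma adjusted p = 0.0533 and 0.0993). After quantile normalization the Krueppel-like list held 1 risen and 2 fallen genes and the Egr and Nr4a list 1 and 1, and after normexp the SRF list held 2 risen and 1 fallen. The mean of all kept probes gave 3 risen and 0 fallen for the SRF list, and without the filter on dim probes the SRF list and the Egr and Nr4a list each held 0 and 0, so the balance depends on the scaling, the choice of probe and the filter. Without MCT 270 replicate 1 the named genes of these 3 lists other than Klf4 lost their calls, at limma adjusted p-values of 0.0529 (Klf15) to 0.106 (Rxrb). In each of these lists 0 genes were called at MCT 270 by limma.

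**Figure D3:**
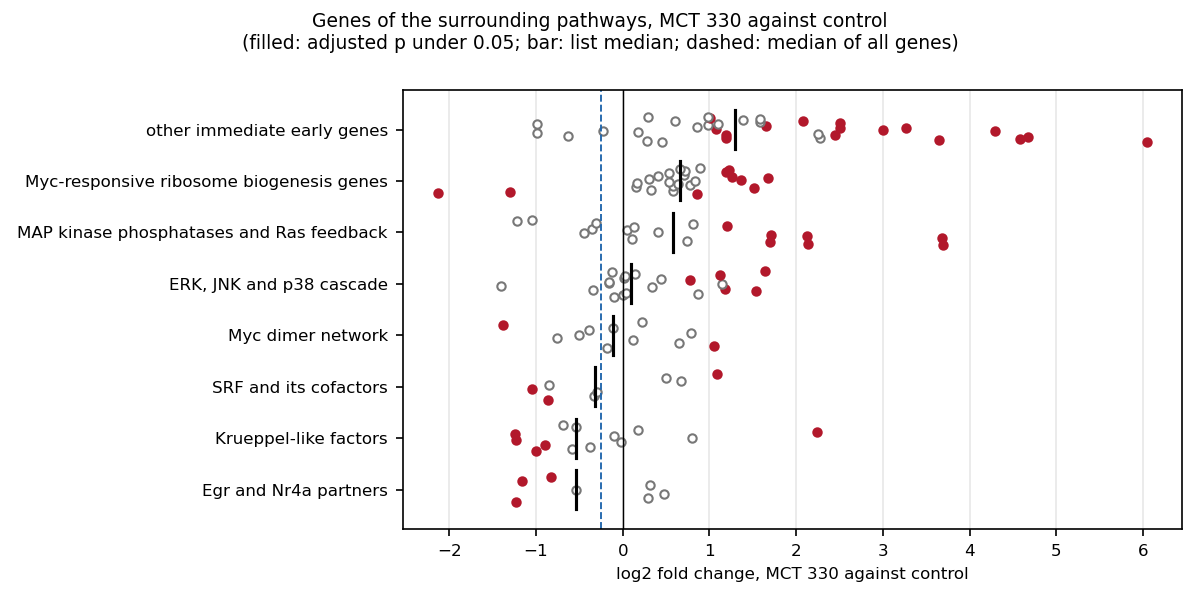
Log2 fold change at MCT 330 against control (x axis) of each tested gene in 8 lists around the immediate early genes (y axis). Filled points have an adjusted p under 0.05 in limma, bars are list medians and the dashed line is the median of all genes, -0.25; the other immediate early genes have the highest median, 1.29.

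Liver is a mixture of cells, and the markers of several cell types differed between the groups. The summed signal of 11 neutrophil markers tested, in units of the array's 75th percentile, was 18.1 to 19.6 on control arrays, 15.3 to 16.4 at MCT 270 and 44.6 to 46.7 at MCT 330, and 6 of the 11 rose and 1 fell at MCT 330 against control. For 9 markers of recruited monocytes and macrophages it was 5.51 to 7.19, 8.50 to 9.13 and 16.0 to 17.1, with 7 of the 9 risen at MCT 330. The 10 sinusoidal endothelial markers summed to less with dose: 37.5 to 38.6 in control, 13.6 to 16.4 at MCT 270 and 9.20 to 9.45 at MCT 330, with 9 of the 10 fallen at MCT 330. Kupffer cell markers (48.7 to 49.9, 34.5 to 40.8, 28.3 to 28.9) and stellate cell markers (32.8 to 37.0, 20.5 to 23.0, 14.0 to 15.6) also had lower sums in the order of dose; 0 of 9 Kupffer markers rose and 4 fell at MCT 330 against control, and 1 of 10 stellate markers rose (Des, 1.04 ± 0.18; limma adjusted p = 0.0183) and 6 fell. Hepatocyte markers summed to 2455 to 2833, 2069 to 2666 and 1910 to 2140, with 0 of 10 risen and 2 fallen. The groups did not overlap for the neutrophil, monocyte, endothelial, Kupffer and stellate sums.

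On the control arrays 6 to 7 of the 11 neutrophil markers and 6 to 8 of the 9 monocyte markers were well above background, against 10 of 11 and 9 of 9 at MCT 330. T, B and NK cell markers summed to 21.8 to 26.6, 10.3 to 12.6 and 7.66 to 8.25, also without overlap between groups. Of these 10 markers 2 rose (Ms4a1 by 2.10 ± 0.24, Ncr1 by 1.36 ± 0.26) and 2 fell (Cd4, -1.85 ± 0.26; Cd3e, -1.08 ± 0.20), so the falling sum does not stand for the list. Cholangiocyte markers summed to 2.12 to 3.51, 2.19 to 2.85 and 4.84 to 4.91, with 1 of 7 risen and 1 fallen. The 3 erythroid markers tested summed to 14.3 to 40.0, 25.1 to 49.3 and 137 to 149, and 0 of the 3 were called: Hba-a1, a haemoglobin chain, had a difference of 3.08 ± 0.99 (limma adjusted p = 0.0712), while Alas2 and Slc4a1 had -0.53 ± 0.30 and -0.65 ± 0.22. The part of these cell types in the immediate early gene values was not tested.

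**Figure D4:**
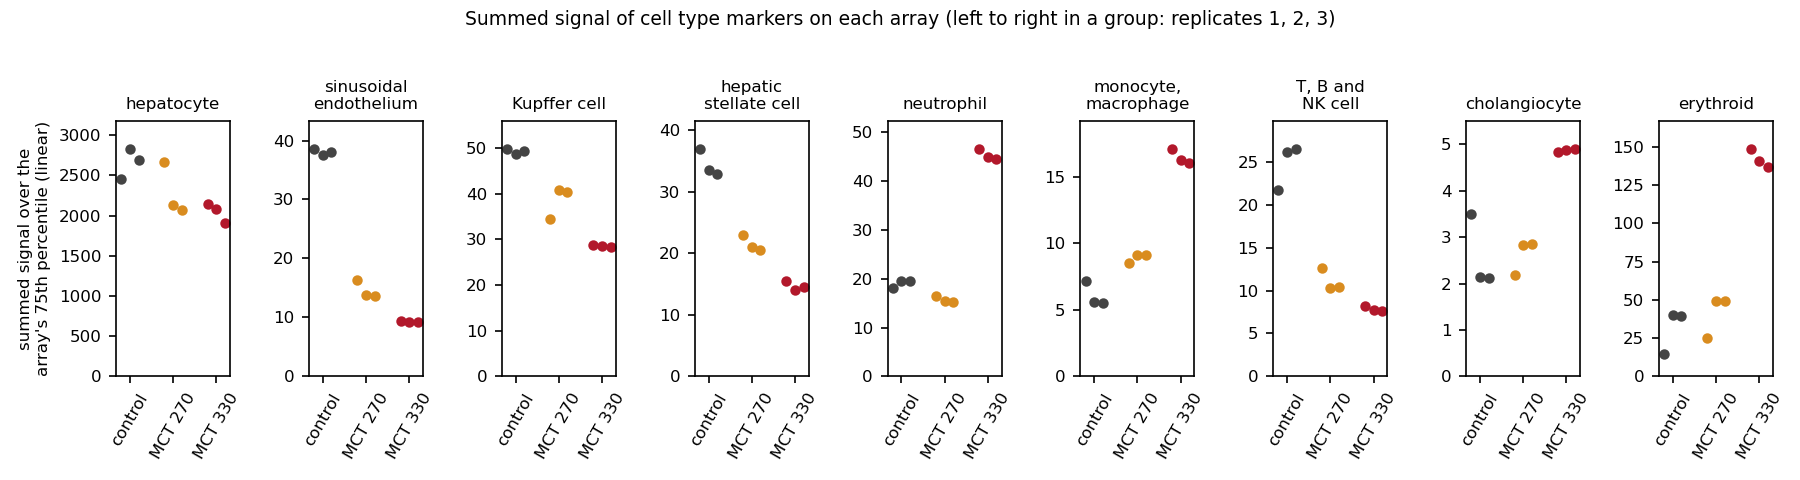
Summed signal of the markers of 9 cell types (y axis, linear, in units of each array's 75th percentile) on the 9 arrays by group (x axis). Each point is an array; the neutrophil and monocyte sums are highest at MCT 330, and the sinusoidal endothelial, Kupffer and stellate sums are lowest there.

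For each of the 10 genes, the genes with the most similar pattern were found among 16015 candidates by the root mean square difference of log2 levels, centred on the control mean, over the 5 samples. Egr2 lay nearest to Dusp10 and Adm, and Ier3 to Stfa1 and Il1r2; no distance is given for these pairs, since the control levels of Egr2, Stfa1 and Il1r2 were not measured. Stfa1 and Il1r2 were not well above background on any control array. At MCT 330 they stood 8.87-fold and 19.3-fold above a floor set as for Egr2. Normexp gave them smaller log2 differences from control, 1.64 and 2.39. Klf6 lay nearest to Ffar4 (0.17) and Slc16a3 (0.19), and Egr1 to Nupr1 and Fst, at 0.40 each. Ier2 was matched by Acss1 (0.059) and Csf2rb (0.068), Ier5 by B3galt1 (0.041) and Il10rb (0.042), and Nr4a1 by Spred1 (0.049) and Zfp142 (0.052). Spred1, a Ras feedback inhibitor, rose by 1.20 ± 0.19 at MCT 330 against control (limma adjusted p = 0.0152), a call that ended without MCT 270 replicate 1 (0.0564). Egr3 lay nearest to Atp5md and Cyp2r1, and no distance is given, since most of its control spots were not well above background. The genes most like Dusp1 were Gdf9 (0.32) and Id1 (0.34), and those most like Myc were Sele and Ccl11, neither of them well above background on a control array, so that no distance is given.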

How the data were processed

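Spot intensities were deposited by the authors as Agilent Feature Extraction 11.0.1.1 output for 9 single-colour Cy3 whole mouse genome arrays, per the file headers, with background already subtracted and the design annotated on mm9. The 9 miRNA arrays were not used here. From the deposited processed intensity, log2 values were taken minus each array's 75th percentile. Control spots (1377 of 44397) were left out, spots marked as outliers were set to missing and spots of a probe were averaged. Of 33258 systematic names 21464 matched a symbol in a RefSeq table, used for names. A probe entered if some group had it well above background on each of its arrays, and the brightest such probe stood for its gene, which left 24805 genes. No spot was saturated, 64.0% to 80.9% of probes were well above background per array, and the number of arrays limits the precision.

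Arrays of a group whose difference stayed within the noise between repeated spots in every brightness class, directly or through another array of the group, were averaged, which gave 5 samples; MCT 330 replicates 1 and 2, just above the noise, were joined through replicate 3. Groups were compared in 1 fit with limma 3.58.1 (lmFit and eBayes) in R 4.3.3, with group as the term and adjusted p under 0.05 as the threshold; p-values measure the spread between these samples, with 2 residual degrees of freedom. Alternatives were quantile normalization, normexp (offset 50, on the median signal) with quantile normalization, no filter, the mean of a gene's probes, 9 arrays as samples with and without a replicate or scan block, and leaving out each array or joined sample.

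The 10 genes, the 8 pathway lists (139 symbols) and the 9 marker lists were chosen with earlier results of these data known. Named were all 10 genes, the 3 largest called changes of each pathway list at MCT 330 against control, and the 2 genes most like each of the 10. Where fewer than 3 of a list passed, those that passed were named.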

Additional observations from a re-analysis of the deposited data

How the results depend on the processing

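Of the fold changes of the 10 genes recomputed under 8 other settings and with arrays or joined samples left out in 11 ways, 175 of 190 kept their direction and side of the threshold for MCT 270 against control, 172 of 190 for MCT 330 against control and 154 of 190 for MCT 330 against MCT 270. At MCT 270 against control, where no gene passed, 515 genes passed under normexp, 9545 with the 9 arrays as samples, 9316 with a replicate block, 7067 with scan as a block and 1727 with MCT 330 replicate 1 as its own sample, a setting chosen after seeing the data; of the 10 genes these last 4 settings called 4, 4, 3 and 1. At MCT 330 against control 3760 genes, and 6 of the 10, passed without the filter on dim probes, and 18057, 17914, 15504 and 13734 in the same 4 settings. At MCT 330 against MCT 270 0 genes, and 0 of the 10, passed without the filter (the largest set of genes adjusted over), and 16115, 15949, 13258 and 11223 in those 4 settings. Leaving out arrays or joined samples gave 3622 to 8518 genes and 6 to 8 of the 10 for MCT 330 against control, 0 to 7138 genes and 0 to 7 of the 10 for MCT 330 against MCT 270, and 0 genes for MCT 270 against control. Fold changes reversed for Klf6 at MCT 270 against control without control replicate 1 (-0.0074) and without MCT 270 replicates 2 and 3 (-0.19; range up to 0.47), for Dusp1 at MCT 330 against control without control replicate 1 (-0.066; range up to 1.08), and for Myc at MCT 270 against control without MCT 270 replicates 2 and 3 (-0.39; range up to 1.51). The cause was not tested beyond the fewer samples that each of these leaves.

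Whether replicate numbers pair the samples could not be decided. The 9 correlations of deviations between same-numbered arrays ran from 0.015 to 0.078, and 0 of them exceeded 0.1. Joined arrays of a group were near copies of each other, so these 9 values are not separate tests. All MCT 330 arrays were joined as 1 sample, so their deviations were close to spot noise and low correlations say little there. Between control and MCT 270 the values were 0.073 to 0.078. The replicate block changed the count of the 10 genes called in 0 of the 3 comparisons relative to the same 9 arrays without it. Dim spots limit Egr2, Egr3 and Ier3, which were not well above background on most or all control arrays. The MCT 330 values rest on 1 sample scanned apart from the other groups.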
